A study of Danio rerio with 4 samples.

Results

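Macrophages of control zebrafish larvae were compared between 3 and 6 days post fertilization (dpf), with 1 library of single cells at each stage. Members were the cells of both control libraries with at least 500 unique molecular identifiers (UMIs), at least 300 genes, at most 10% of UMIs from mitochondrial genes and at least 1 UMI of 3 or more of 8 markers (mpeg1.1, MFAP4, marco, grn1, c1qb, c1qc, ctss2.1 and slc43a3b). The rule found 10706 of 34159 filtered cells at 3 dpf (31.3%, exact binomial interval 30.8 to 31.8%) and 660 of 1984 at 6 dpf (33.27%, 31.2 to 35.4%), or 11366 members of 36143 filtered control cells. The markers were chosen from these cells, so their own levels are given only as a description.

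Cells came from minced whole larvae that had received the solvent DMSO from 30 to 50 hours post fertilization, with 40 to 50 embryos a well. The labels name the reporters of the sorts but no strain and no other allele. At 3 dpf the labels name a sort of gata2b GFP+ cells, and at 6 dpf a sort of mpeg1.1 mCherry+ cells. The other libraries of the series, from larvae that received 20 µM of SB431542 in the same window, carry the same stages and sorts. SB431542 inhibits ALK5, the type I receptor of TGF-β, and those libraries are used here as another pair of the same design. Each group is 1 library, and larvae of the later stage had moved from embryo medium into the fish facility. Whether the macrophages of the earlier sort are those that carry the gata2b reporter was not tested. Stage, sort, housing and library therefore cannot be told apart, no test between stages was possible, and intervals cover counting error only.

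Macrophages are phagocytes that clear dying cells and microbes, digest them in lysosomes, and store or recycle the iron, heme and lipid they take up. They sense microbes through Toll-like receptors, whose signal runs through NF-κB to cytokines and chemokines, and they live on signals of the receptor Csf1r. In zebrafish the first macrophages are found on the yolk, while later ones descend from hematopoietic stem and progenitor cells (HSPCs), which are marked by gata2b. The gene mpeg1.1 encodes a pore-forming protein of macrophages and drives the reporter of the later sort.

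The members held 36142078 UMIs at 3 dpf and 9207172 at 6 dpf, with medians of 2945 and 11265 UMIs and 1296 and 1970.5 genes per cell. When each cell was thinned to 2000 UMIs, the order of gene number turned: medians were 1014 genes in 8757 cells at 3 dpf and 729 genes in 633 cells at 6 dpf, and 1949 and 27 members were too shallow. Cells with none of the 8 markers, called marker-free here, stood in the same order, with 961 and 659 genes. The 3 dpf members were thus shallower per cell but spread their UMIs over more genes. Of all barcodes, 28 occurred in both control libraries, 4 of them as members in both.

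Not every member was a macrophage by its other genes. Clustered within its library, the 6 dpf set held 25 cells led by fabp10a, tfa, ttr and hp, which are liver genes. This hepatocyte-like cluster had a median of 44035 UMIs, no mpeg1.1 UMI, and 13.2% of all member UMIs of that library although it was 3.79% of the cells. A larger 6 dpf cluster, of 180 cells (27.3% of members, 179 of them marker-rich), was led by the pancreatic enzyme genes prss59.2, ctrb1, prss59.1, ela2l and prss1. Its 8 markers summed to 15472 CPM, against 12388 CPM in all 6 dpf members, which include the hepatocyte-like cluster. The markers admitted these cells, so their sum does not decide what the cells are, and the cluster is left unnamed. Exocrine pancreas genes summed to 5506 CPM over all 6 dpf members. They reached at most 1182 CPM in the marker-rich cells of any 6 dpf cluster with at least 30 such cells, and 346 CPM over all marker-rich 6 dpf members. Most of this RNA thus lay in members that were not marker-rich. The leading genes were ranked with the cluster's remaining cell included, so they need not describe its 179 marker-rich cells. Another 14 cells were led by grn2 and icn, a keratinocyte gene, and 33 were led by si:ch211-139a5.9, pvalb8 and cxcl18b. At 3 dpf, 790 members formed a cluster led by pigment genes such as pax7b, trpm1b and mlpha, and the doublet caller Scrublet called 86.2% of them. A further 1200 cells were led by gch2, pts and paics, which pigment cells use to make pteridines and purines. Of these, 1082 were marker-rich and 6.58% were called by Scrublet, and the cluster held 7294 CPM of the pigment list. Its 8 markers summed to 10511 CPM, against 9426 CPM in all 3 dpf members, which include the clusters led by genes of other cell types. This sum does not decide what the cells are either, and the cluster is left unnamed. Smaller 3 dpf clusters were led by genes of progenitors (418 cells, myb), gut (302, agr2 and cldn15la), neurons (173, elavl4), erythrocytes (80, hbbe1.1), neutrophils (60, lyz and mpx), epidermis (44, krt5) and liver (26, apoa2).

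A stricter set was therefore described beside the members, chosen after the data were seen. It holds members with at least 0.3% of their UMIs from the 8 markers and no Scrublet call, 8568 cells at 3 dpf and 603 at 6 dpf, and is called marker-rich. Scrublet was run on the control libraries only, so marker-rich members of the inhibitor libraries meet the 0.3% cut alone. The plot of marker UMIs against depth shows what the control set leaves out. At 6 dpf these were 57 cells, 8.64% of the members with 25.9% of their UMIs. At 3 dpf they were 2138 cells, 20.0% of the members with 28.9% of their UMIs, and Scrublet had called 1477 of them.

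**Figure D1:**
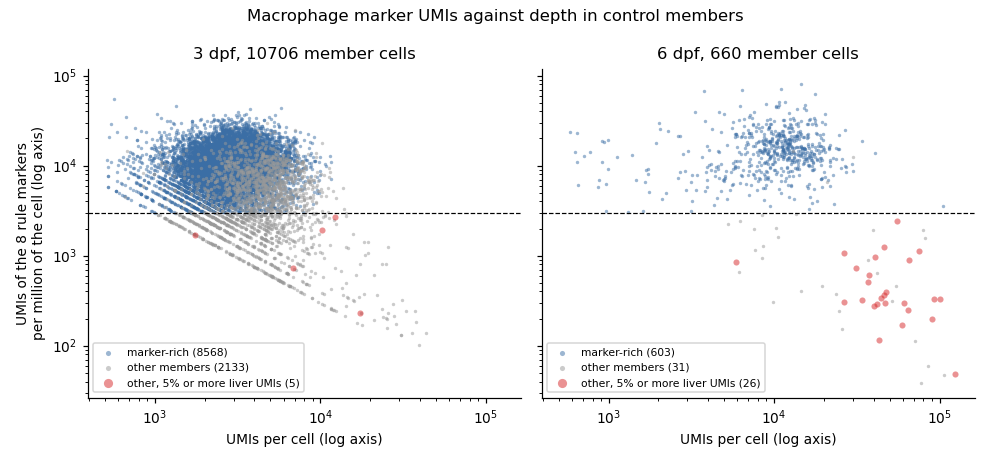
Summed CPM of the 8 markers within a cell (vertical, log axis) against UMIs per cell (horizontal, log axis) for the members of each control library, 1 point a cell. Blue cells are marker-rich, the dashed line is 3000 CPM, and red cells are other members with 5% or more of their UMIs from liver genes. At 6 dpf 26 such cells lie below the line and most are deeper than the blue cells.

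RNA of other cell types differed between the stages, and each list is given as a summed level in CPM, counts scaled to a total of 1e+06 UMIs. The liver list stood at 270.2 CPM in members at 3 dpf and 34898 at 6 dpf, but at 119 and 125 CPM in marker-rich members. Exocrine pancreas genes stood at 29.1 and 5506 CPM in members and at 4.83 and 346 in marker-rich ones. Leaving out the members that were not marker-rich thus removed nearly all liver RNA and most, but not all, pancreatic RNA at 6 dpf. Blood and pigment genes had the opposite order. Erythroid genes stood at 3061 and 5.00 CPM in members and at 1297 and 4.54 in marker-rich ones, and marker-free cells of the same libraries held 27498 and 3793. Pigment genes stood at 2441 and 125 CPM in members and at 1480.3 and 56.3 in marker-rich ones, against 14768 and 399 in marker-free cells. Neutrophil genes stood at 2603 and 2766 CPM, of which srgn, which other blood cells also make, held 607 and 1317 CPM, while lyz alone went from 806 to 0.434 CPM. The tissue markers outside blood summed in marker-rich members to 13.2% of their level in marker-free cells at 3 dpf and to 4.34% at 6 dpf. Ratios are therefore given for both sets of cells below, and the part of this RNA in any 1 ratio was not tested further.

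Reporter features were read beside the labels. GFP was listed at 0 UMIs in the members of both libraries, where 3 counts would be 0.0830 and 0.326 CPM. A feature named EYFP stood at 166 CPM in 3 dpf members and 0 UMIs at 6 dpf, and was higher in marker-free 3 dpf cells, at 1110.4 CPM. mCherry stood at 23.9 CPM at 3 dpf and 5.76 CPM at 6 dpf in members. In marker-free cells it stood at 0.568 CPM (17 UMIs) and 0.154 CPM (1 UMI). The 3 dpf members thus also held mCherry UMIs, although the 3 dpf label names only the gata2b reporter.

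Levels were compared as log2 of the 6 dpf CPM + 5 over the 3 dpf CPM + 5, among 8058 genes with at least 10 CPM in either library. Of these, 587 (7.28%) were at least 2-fold higher at 6 dpf and 3295 (40.9%) at least 2-fold lower, and the median ratio was -0.82. In marker-rich members 274 of 6962 genes were higher (3.94%), 2602 were lower (37.4%), and the median was -0.77. Only 217 of the 587 higher genes (37.0%) were also 2-fold higher in marker-rich members, against 2456 of the 3295 lower genes (74.5%). Most of the genes that were higher at 6 dpf among all members were therefore not so among cells rich in macrophage markers. Lower ratios also made up much of the comparison outside the macrophages. Among 10549 genes compared in marker-free cells, 816 (7.74%) were higher and 4014 (38.1%) lower, and over the 8058 genes of the members their median was -0.79. With the median set to 0, 1468 genes (18.2%) were higher and 568 (7.05%) lower in all members, and 1149 (16.5%) and 420 (6.03%) in marker-rich ones. Scaling by trimmed mean of M-values (TMM) adds 0.99 to every ratio, so a ratio between -0.99 and 0 below has the opposite sign under it. Under TMM the median stayed below 0 for the identity (-0.29), transcription factor (-0.14), NF-κB (-0.080), Toll-like receptor (-0.30), S phase (-0.045) and G2/M (-0.17) lists, and was above 0 for every other role list. Each ratio below is the log2 ratio in CPM of all members, followed where a range is given by its 95% interval from exact Poisson limits, and then by the ratio in marker-rich members.

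A few abundant genes took a larger share of the RNA at 6 dpf. Cytosolic ribosomal protein genes took 181375 CPM at 3 dpf and 259493 CPM at 6 dpf, and 207548 and 369307 in marker-free cells. The median ratio of 78 such genes was 0.52, and that of 87 respiratory chain genes, which carry electrons to oxygen in mitochondria, 0.36. The 100 most abundant genes held 32.8% of member UMIs at 3 dpf and 47.6% at 6 dpf. The 6 dpf RNA was thus more concentrated in few abundant genes, in members as in marker-free cells (38.54% and 54.2%).

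**Figure D2:**
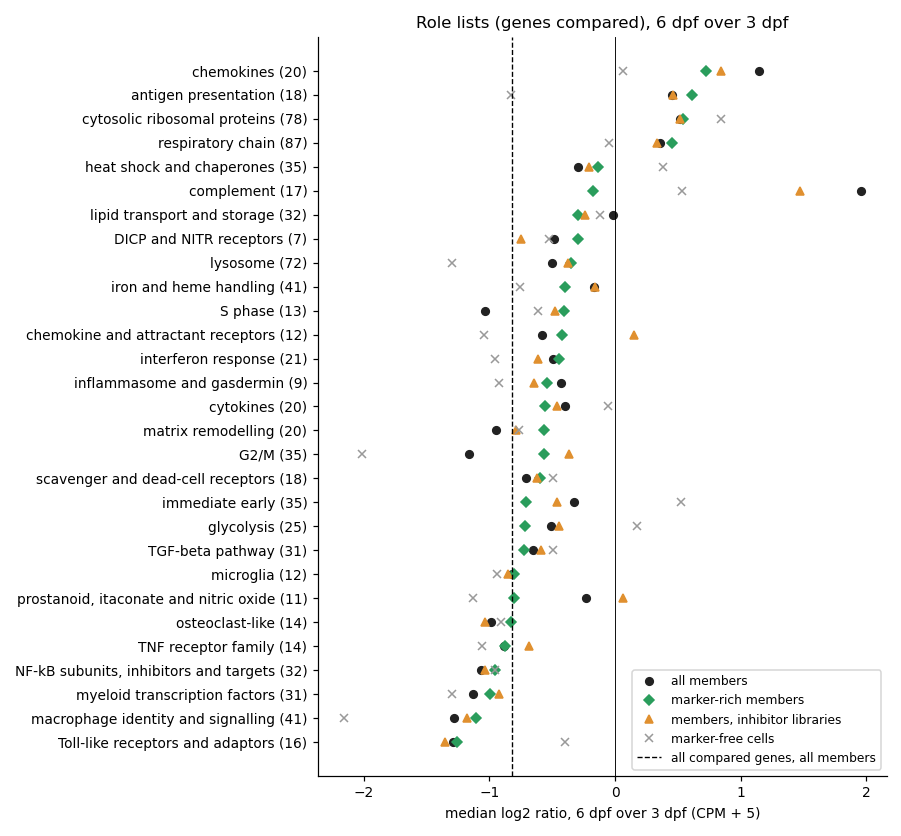
Median log2 ratio of 6 dpf over 3 dpf for lists of genes by role, with the number of genes compared. Symbols are all control members, marker-rich control members, members of the inhibitor libraries and marker-free control cells, and the dashed line is the median of all 8058 genes (-0.82). Toll-like receptor, identity and NF-κB lists lie left of the line in members. The complement list is far right only where members that were not marker-rich are included.

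The markers of the rule, given as a description, differed in both directions. grn1, a granulin growth factor precursor, stood at 819 CPM at 3 dpf and 4834 CPM at 6 dpf (log2 ratio 2.55, 2.53 to 2.58; 2.69 marker-rich). The complement C1q subunits were also higher, c1qb at 48.0 and 119 CPM (log2 ratio 1.22, 1.36 marker-rich) and c1qc at 127 and 299 CPM (log2 ratio 1.201, 1.37 marker-rich), and c1qa, which the rule did not use, at 28.8 and 77.8 CPM (log2 ratio 1.29, 1.47 marker-rich). C1q binds antibody and dying cells and is made by macrophages themselves. In contrast mpeg1.1, whose promoter drives the 6 dpf sort, stood at 329.9 CPM at 3 dpf and 71.9 CPM at 6 dpf (log2 ratio -2.12, -2.23 to -2.02; -2.01 marker-rich). The main MFAP4 feature stood at 4413 and 2763 CPM (log2 ratio -0.67, -0.55 marker-rich), the scavenger receptor gene marco at 689 and 429.7 CPM (log2 ratio -0.67, -0.56 marker-rich), and the transporter gene slc43a3b at 682 and 669.9 CPM (log2 ratio -0.027, 0.099 marker-rich). MFAP4 names 7 features of the files, close copies among which reads may be split. Another of them went from 103.1 to 16.6 CPM, with a ratio of -2.32 in all members and -2.27 in marker-rich ones. The protease gene ctss2.1 stood at 2191 and 3152 CPM (log2 ratio 0.52, 0.67 marker-rich).

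Lipid genes did not share a direction. fabp11a, a fatty acid binding protein of the FABP4 family, stood at 401 CPM at 3 dpf and 8796 CPM at 6 dpf (log2 ratio 4.44, 4.41 to 4.46; 4.66 marker-rich). After thinning, 28.1% of members had a fabp11a UMI at 3 dpf and 61.5% at 6 dpf, against 4.30% and 7.03% of marker-free cells. Clusters differed widely, from 95.5 to 3945 CPM at 3 dpf and from 1079 to 36861 CPM at 6 dpf, so the ranges overlap. A feature named NPC2, for a sterol carrier of the lysosome, stood at 62.9 CPM at 3 dpf and 751 CPM at 6 dpf (log2 ratio 3.48, 3.41 to 3.54; 3.64 marker-rich), and a second one, npc2, at 489 and 1387 CPM (log2 ratio 1.495, 1.65 marker-rich). Its membrane partner npc1 was lower, at 196 and 98.0 CPM (log2 ratio -0.97, -1.13 marker-rich). The apolipoprotein genes of microglia and fat-laden macrophages were higher, apoeb at 694 and 1767 CPM (log2 ratio 1.34, 1.56 marker-rich) and apoc1 at 640.0 and 4832 CPM (log2 ratio 2.91, 1.33 marker-rich). The apoc1 ratio was thus smaller without the members that were not marker-rich. Microglia genes as a list were not higher: 2 of 12 compared were higher and 3 lower in marker-rich members, with a median of -0.81. Around the median of all genes 3 were higher and 3 lower. The gene soat1, which makes cholesterol esters for storage, was lower at 101 and 37.0 CPM (log2 ratio -1.33, -1.29 marker-rich), and the exporter gene abca1a stood at 381 and 251 CPM (log2 ratio -0.59, -0.61 marker-rich). The lowest ratio of the lipid list in all members was that of fabp7a, another fatty acid binding protein, at 128 and 9.12 CPM (log2 ratio -3.24, -1.36 marker-rich). Of 32 lipid genes compared, 12 were higher and 4 lower in all members, but 6 and 8 in marker-rich members (9 and 0 around the median). Among the 8058 genes 3.43% were higher and 33.2% lower in marker-rich members, or 15.4% and 5.21% around the median. Each list count below stands against these shares, and a list in which about 33.2% of genes were lower had no more lower genes than all genes together.

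Other binding and membrane proteins were higher as well. rbp2a, a retinol binding protein, stood at 48.8 and 488 CPM (log2 ratio 3.196, 3.05 marker-rich), and fabp7b at 21.6 and 151 CPM (log2 ratio 2.55, 2.69 marker-rich). The tetraspanin gene cd9b stood at 58.4 and 613 CPM (log2 ratio 3.29, 3.66 marker-rich), and mt2, a metallothionein that binds zinc and copper, at 508 and 3237 CPM (log2 ratio 2.66, 2.89 marker-rich). For mt2 the ratio in the inhibitor libraries was smaller, at 1.28 in marker-rich members. Marker-free cells also had higher cd9b at 6 dpf, with a ratio of 2.38, and higher mt2, with 1.90.

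Iron and heme genes did not share a direction. Among ferritin genes, which store iron, fthl28 stood at 1091 CPM at 3 dpf and 4832 CPM at 6 dpf (log2 ratio 2.14, 2.12 to 2.16; 2.27 marker-rich), fthl29 at 216 and 923 CPM (log2 ratio 2.07, 2.13 marker-rich) and fthl27 at 13858 and 25846 CPM (log2 ratio 0.90, 1.002 marker-rich). The ferritin heavy chain-like genes are close copies, so how reads were shared among them is uncertain, and fth1a stood at 1718 and 1532 CPM (log2 ratio -0.16, 0.017 marker-rich). Among genes that handle heme, slc48a1b, which carries heme out of the phagosome, stood at 82.2 and 246 CPM (log2 ratio 1.53, 1.73 marker-rich), the biliverdin reductase gene blvrb at 91.6 and 245 CPM (log2 ratio 1.37, 1.56 marker-rich), and prdx1, a peroxiredoxin induced by heme in other species, at 1457 and 3398 CPM (log2 ratio 1.22, 1.42 marker-rich). The transporter gene flvcr2b, of the FLVCR family, was lower at 38.8 and 16.5 CPM (log2 ratio -1.02, -1.13 marker-rich). The heme oxygenase gene hmox1a stood at 275 and 503 CPM (log2 ratio 0.86, 0.83 marker-rich), and the iron exporter gene slc40a1 at 162 and 153 CPM (log2 ratio -0.083, 0.062 marker-rich).

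Several regulators of the same pathway and importers of iron were lower. slc25a37, the mitochondrial iron importer mitoferrin 1, stood at 336 CPM at 3 dpf and 45.7 CPM at 6 dpf (log2 ratio -2.75, -2.88 to -2.62; -2.72 marker-rich). The heme-sensing repressor gene bach1b stood at 668 and 199.8 CPM (log2 ratio -1.72, -1.66 marker-rich), and nfe2l2a, which encodes the oxidative stress factor Nrf2, at 293 and 113 CPM (log2 ratio -1.33, -1.51 marker-rich). Among genes that Nrf2 is known to drive, the cystine carrier gene slc7a11 stood at 973 and 348 CPM (log2 ratio -1.47, -1.27 marker-rich) and gclc at 81.2 and 26.2 CPM (log2 ratio -1.47, -1.56 marker-rich). Not all genes known as Nrf2 targets were lower: prdx1 and hmox1a, given above, had ratios above 0, and nqo1 stood at 2.88 and 59.6 CPM (log2 ratio 3.04, -0.14 marker-rich). The activity of Nrf2 was not tested. The iron-responsive aco1 stood at 33.28 and 7.49 CPM (log2 ratio -1.62, -1.51 marker-rich), and the transferrin receptor gene tfr1b at 17.04 and 1.96 CPM (log2 ratio -1.66, -1.31 marker-rich). In all members 12 of 41 iron and heme genes were higher and 12 lower, and in marker-rich members 6 and 14, or 12 and 2 around the median. The plasma protein gene tfa and a feature named hp were higher in all members and lower in marker-rich ones, with ratios of 3.68 and 3.49 in all members and -1.57 and -1.84 in marker-rich ones.

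Lysosomal proteases were higher or level, while the proton pump and its regulators were level or lower. ctsl.1 stood at 1234 CPM at 3 dpf and 4324 CPM at 6 dpf (log2 ratio 1.80, 1.79 to 1.82; 1.95 marker-rich), and ifi30, a thiol reductase that opens disulfide bonds of engulfed proteins, at 176 CPM at 3 dpf and 1068 CPM at 6 dpf (log2 ratio 2.57, 2.53 to 2.62; 2.86 marker-rich). Cathepsin D (ctsd) stood at 1442 and 2764 CPM (log2 ratio 0.94, 1.13 marker-rich), cathepsin B (ctsba) at 2452 and 4256 CPM (log2 ratio 0.79, 0.97 marker-rich), and cd63, a membrane protein of late endosomes, at 2748 and 4745 CPM (log2 ratio 0.79, 0.998 marker-rich). The collagen-degrading ctsk stood at 1838 and 1978 CPM (log2 ratio 0.11, 0.28 marker-rich) and the asparaginyl protease gene lgmn at 1290.1 and 1312 CPM (log2 ratio 0.024, 0.11 marker-rich). Pump subunits ranged from atp6v0ca at 4360.3 and 3596 CPM (log2 ratio -0.28, -0.10 marker-rich) to atp6v1ba at 689 and 232 CPM (log2 ratio -1.55, -1.38 marker-rich). The lysosomal calcium channel gene mcoln1a stood at 175 and 54.2 CPM (log2 ratio -1.60, -1.54 marker-rich), the membrane glycoprotein gene lamp1a at 38.10 and 7.603 CPM (log2 ratio -1.77, -1.69 marker-rich), and tfeb, which switches on lysosomal genes, at 595 and 255 CPM (log2 ratio -1.21, -1.02 marker-rich). Of 72 lysosomal genes, 7 were higher and 16 lower in all members, and 8 and 13 in marker-rich ones. Around the median 25 were higher and 0 lower in marker-rich members, where 15.4% of all genes were higher. The summed lysosome list was 40962 CPM at 3 dpf and 59078 CPM at 6 dpf in those cells.

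grn2 had a ratio of 6.52 in all members, from 1.27 to 569.7 CPM, and 4.90 in marker-rich ones. Of its 5245 UMIs at 6 dpf, 1299 lay in marker-rich members, where the clusters of at least 30 cells ranged from 2.38 to 10.1 CPM, and 2.53% of thinned members had a UMI, so few cells held most of it.

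Osteoclasts are bone-resorbing relatives of macrophages, and their genes did not move together. acp5a, the acid phosphatase used to stain them, stood at 147 and 322 CPM (log2 ratio 1.29 marker-rich) and the fusion gene ocstamp at 285 and 462 CPM (log2 ratio 0.69, 0.88 marker-rich). The acid secretion genes tcirg1b and clcn7 stood at 1419 and 436 CPM (log2 ratio -1.69, -1.51 marker-rich) and 315 and 83.8 CPM (log2 ratio -1.85, -1.70 marker-rich), and tnfrsf11a, the receptor RANK, at 192 and 53.2 CPM (log2 ratio -1.76, -1.59 marker-rich). Of 14 genes, 1 was higher and 5 were lower in marker-rich members, or 3 and 0 around the median.

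Antigen presentation genes differed in both directions, and their summed level was 2189 CPM at 3 dpf and 2241 CPM at 6 dpf. The invariant chain genes, which guide class II molecules, stood at 27.0 CPM at 3 dpf and 139 CPM at 6 dpf (log2 ratio 2.17, 2.06 to 2.28; 2.36 marker-rich) for cd74a and 19.01 CPM at 3 dpf and 152 CPM at 6 dpf (log2 ratio 2.71, 2.60 to 2.82; 2.97 marker-rich) for cd74b. The class II chain mhc2a stood at 0.747 and 21.8 CPM (log2 ratio 2.22, 2.44 marker-rich), and b2m, the light chain of class I, at 18.6 and 83.2 CPM (log2 ratio 1.90, 2.72 marker-rich). The immunoproteasome gene psmb10 and the proteasome activator genes psme1 and psme2 had marker-rich ratios of 1.45, 1.38 and 1.38. After thinning, cd74b UMIs were seen in 2.90% of members at 3 dpf and 24.3% at 6 dpf, and in 1.27% and 0.287% of marker-free cells. A 3 dpf cluster of 666 cells was already led by cd74a and cd74b, at up to 130.2 CPM, and the 6 dpf clusters ranged from 92.7 to 689.6 CPM. The genes of maturation were lower, with the activation marker cd83 at 365 and 75.8 CPM (log2 ratio -2.20, -2.04 marker-rich) and the costimulatory receptor gene cd40 at 128 and 41.3 CPM (log2 ratio -1.53, -1.43 marker-rich). Of 18 genes, 8 were higher and 3 lower in marker-rich members, or 10 and 1 around the median. In marker-free cells mhc1uba was also more than 2-fold higher, with a ratio of 1.17, while b2m went from 63.4 to 28.0 CPM.

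Of the role lists, complement genes had medians that differed most between all members and marker-rich ones. Of 17 compared, 15 were higher and 1 lower in all members, with a median of 1.96, and only c1qa was higher in marker-rich members, with 2 lower and a median of -0.18. The rule markers c1qb and c1qc, given above, are not counted in this list. They were more than 2-fold higher in marker-rich members, but they are part of the rule and of the marker-rich cut. Their levels are therefore a description and no support for c1qa. The liver-made c3a.1 went from 3.74 to 215 CPM in all members and stood at 1.44 and 0.586 in marker-rich ones, and c9 from 1.38 to 103 CPM against 0.545 and 0.147. The opposite held for cfp, properdin, which leukocytes make and which stabilizes the C3 convertase, at 153 and 53.8 CPM (log2 ratio -1.42, -1.32 marker-rich). c7b was higher in all members and lower in marker-rich ones, at ratios of 1.02 and -1.80.

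Chemokine genes were among the most abundant that were higher. ccl35.1 stood at 3000.3 CPM at 3 dpf and 9803 CPM at 6 dpf (log2 ratio 1.71, 1.69 to 1.72; 1.88 marker-rich), and cxcl19 at 1310.4 CPM at 3 dpf and 3695 CPM at 6 dpf (log2 ratio 1.49, 1.47 to 1.51; 1.68 marker-rich). Both are poorly known zebrafish chemokines of the CC and CXC families, and they made up most of the summed chemokine level of 9914 and 22738 CPM in marker-rich members. cxcl20 stood at 4.62 and 136 CPM (log2 ratio 3.88, 4.21 marker-rich), and cxcl11.1, a ligand of Cxcr3 receptors, stood at 50.7 and 221 CPM (log2 ratio 2.02, 2.16 marker-rich). The neutrophil attractant cxcl8a stood at 860.0 and 1495 CPM (log2 ratio 0.79, 0.86 marker-rich), but its level in marker-free cells went from 72.5 to 482 CPM. cxcl18b stood at 53.1 and 599 CPM (log2 ratio 3.38, 4.32 marker-rich), and marker-free cells held 187 and 1079 CPM, more than the members. Other members of the family were lower, ccl34a.4 at 1598 and 599.5 CPM (log2 ratio -1.41, -1.32 marker-rich) and ccl35.2 at 192 and 60.9 CPM (log2 ratio -1.58, -1.42 marker-rich). Of 20 chemokines, 10 were higher and 2 lower in all members, and 8 and 2 in marker-rich ones, or 11 and 0 around the median.

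Among receptors for attractants, gpr84, a receptor for medium-chain fatty acids, was lower by the most at 1972 CPM at 3 dpf and 368 CPM at 6 dpf (log2 ratio -2.41, -2.45 to -2.36; -2.24 marker-rich). The leukotriene receptor gene ltb4r stood at 175 and 36.06 CPM (log2 ratio -2.13, -1.98 marker-rich) and cxcr3.2 at 138 and 49.3 CPM (log2 ratio -1.39, -1.18 marker-rich). cxcr1, a receptor of Cxcl8, was higher at 50.4 and 124 CPM (log2 ratio 1.21, 1.40 marker-rich), and cxcr4b, which holds cells by Cxcl12, stood at 137 and 197 CPM (log2 ratio 0.50, 0.76 marker-rich). Of 12 compared, 1 was higher and 4 were lower in marker-rich members, the lower share being near that of all genes, or 5 and 2 around the median.

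Cytokine genes did not share a direction. il1b, the inflammatory interleukin 1 beta, stood at 1651 CPM at 3 dpf and 649.8 CPM at 6 dpf (log2 ratio -1.34, -1.38 to -1.301; -1.21 marker-rich), and csf3a, the granulocyte growth factor, at 256 CPM at 3 dpf and 32.8 CPM at 6 dpf (log2 ratio -2.79, -2.94 to -2.64; -2.73 marker-rich). il6 stood at 16.9 and 2.39 CPM (log2 ratio -1.57, -1.79 marker-rich) and il11b at 38.4 and 9.67 CPM (log2 ratio -1.57, -1.51 marker-rich). By contrast tnfa stood at 309 and 444 CPM (log2 ratio 0.52, 0.63 marker-rich) and tnfb at 719.6 and 573 CPM (log2 ratio -0.33, -0.15 marker-rich), both within 2-fold. il34, the other ligand of Csf1r, was higher at 24.5 and 82.0 CPM (log2 ratio 1.56, 1.78 marker-rich), and so was il12ba, the shared chain of interleukins 12 and 23, at 4.92 and 24.8 CPM (log2 ratio 1.58, 1.79 marker-rich). In marker-free cells il34 went from 30.5 to 62.0 CPM. Within 6 dpf the inflammatory genes were concentrated in 119 cells led by gpnmb, csf3a, tnfa, cxcl11.1, il1b and cxcl8a. In that cluster il1b reached 2781 CPM, close to the highest 3 dpf cluster at 2765, while the lowest 6 dpf cluster stood at 162 CPM. Of 20 cytokines, 3 were higher and 9 lower in marker-rich members, or 4 and 3 around the median.

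Several NF-κB genes were lower in marker-rich members beyond the shift of the median. nfkb1 stood at 97.3 CPM at 3 dpf and 12.9 CPM at 6 dpf (log2 ratio -2.51, -2.71 to -2.32; -2.43 marker-rich) and rel at 245 and 46.9 CPM (log2 ratio -2.27, -2.13 marker-rich), while rela stood at 10.9 and 3.37 CPM (log2 ratio -0.92, -0.79 marker-rich). All of these are subunits of the factor. bcl10 and malt1 act together in passing receptor signals to NF-κB, and they stood at 73.6 and 18.1 CPM (log2 ratio -1.76, -1.69 marker-rich) and 71.2 and 14.8 CPM (log2 ratio -1.95, -1.87 marker-rich). The feedback inhibitor tnfaip3, which is itself a target, stood at 296 and 48.9 CPM (log2 ratio -2.48, -2.51 marker-rich) and bcl3 at 107 and 17.5 CPM (log2 ratio -2.32, -2.25 marker-rich). The inhibitors of the IκB family were nearer to level, with nfkbiaa at 959.6 and 571 CPM (log2 ratio -0.74, -0.69 marker-rich) and nfkbie at 469.9 and 437 CPM (log2 ratio -0.10, 0.094 marker-rich). Of 32 genes, 0 were higher, near the 3.43% of all genes, and 16 lower in marker-rich members, or 1 and 6 around the median. The median ratio was -0.96 there and -0.95 in marker-free cells.

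Toll-like receptors and their adaptors had the lowest median of the role lists, -1.26 in marker-rich members, against -0.40 in marker-free cells. The flagellin receptor gene tlr5b stood at 231 and 86.1 CPM (log2 ratio -1.37, -1.26 marker-rich), tlr8b at 52.5 and 11.2 CPM (log2 ratio -1.83, -1.73 marker-rich), and unc93b1, which brings such receptors to endosomes, at 29.2 and 3.91 CPM (log2 ratio -1.94, -2.05 marker-rich). The adaptor genes traf6 and myd88 stood at 77.9 and 21.2 CPM (log2 ratio -1.66, -1.56 marker-rich) and 13.4 and 4.34 CPM (log2 ratio -0.98, -0.88 marker-rich). Of 16 genes, 0 were higher and 12 lower, and 0 and 3 around the median. The inflammasome list held gsdmea, a gasdermin that opens pores in the membrane, at 999.7 CPM at 3 dpf and 277 CPM at 6 dpf (log2 ratio -1.83, -1.89 to -1.78; -1.68 marker-rich), while pycard, the adaptor ASC, stood at 226 and 367 CPM (log2 ratio 0.69, 0.92 marker-rich).

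Interferon response genes did not share a direction. The antiviral gene mxf stood at 346 CPM at 3 dpf and 55.7 CPM at 6 dpf (log2 ratio -2.53, -2.65 to -2.41; -2.39 marker-rich), stat1a at 63.4 and 38.56 CPM (log2 ratio -0.65, -1.01 marker-rich), isg15 at 28.1 and 125 CPM (log2 ratio 1.97, 1.16 marker-rich) and socs1a at 11.76 and 28.9 CPM (log2 ratio 1.02, 1.13 marker-rich). Of 21 genes, 2 were higher and 7 lower in marker-rich members, the lower share being near that of all genes, or 5 and 3 around the median.

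Genes of macrophage identity and signalling were lower on the whole, but not the myeloid transcription factor gene spi1b. spi1b, which encodes Pu.1, stood at 1544 CPM at 3 dpf and 1433 CPM at 6 dpf (log2 ratio -0.11, -0.13 to -0.08; 0.11 marker-rich), with UMIs in 90.2% and 86.7% of thinned members. Its copy spi1a stood at 339 and 124 CPM (log2 ratio -1.41, -1.27 marker-rich), cebpa at 508 and 249 CPM (log2 ratio -1.02, -0.91 marker-rich), and mafba at 112 and 60.0 CPM (log2 ratio -0.85, -1.04 marker-rich). The receptor genes csf1ra and csf1rb stood at 369.7 CPM at 3 dpf and 93.4 CPM at 6 dpf (log2 ratio -1.93, -2.02 to -1.83; -1.64 marker-rich) and 55.9 CPM at 3 dpf and 1.74 CPM at 6 dpf (log2 ratio -3.18, -3.35 to -2.95; -2.91 marker-rich). Pigment cells also use csf1ra, and in marker-free cells it went from 268 to 3.39 CPM. The leukocyte phosphatase gene ptprc (CD45) stood at 912 and 191 CPM (log2 ratio -2.23), the actin bundler lcp1 at 241 and 31.1 CPM (log2 ratio -2.77, -2.64 marker-rich), the integrin gene itgb2 at 106 and 22.8 CPM (log2 ratio -1.999, -1.83 marker-rich), and the kinase gene hck at 271 and 46.2 CPM (log2 ratio -2.43, -2.32 marker-rich). Their levels in marker-free cells at 3 dpf were 176 CPM for ptprc and 50.7 CPM for lcp1, and at 6 dpf 3.69 and 1.38 CPM. Of 41 genes in the list, 2 were higher (tyrobp and laptm5) and 23 lower in marker-rich members, or 4 and 7 around the median. The transcription factor list had 2 higher and 15 lower of 31, or 4 and 1 around the median.

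Within the phagocyte oxidase, which makes superoxide, subunits differed. The cytosolic subunit genes ncf1 and ncf4 stood at 1194 and 271 CPM (log2 ratio -2.12, -1.93 marker-rich) and 626 and 225 CPM (log2 ratio -1.46, -1.27 marker-rich), and the membrane subunit cybb at 124 and 36.0 CPM (log2 ratio -1.66, -1.499 marker-rich). Its partner cyba stood at 389.7 and 487 CPM (log2 ratio 0.32, 0.48 marker-rich). The Fc receptor gamma genes likewise split, with fcer1gl at 1114 and 1122 CPM (log2 ratio 0.01, 0.21 marker-rich) and fcer1g at 102 and 40.8 CPM (log2 ratio -1.23, -1.04 marker-rich).

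Genes of glycolysis were lower about as often as all genes. hk2, which encodes the inducible hexokinase, stood at 1248 CPM at 3 dpf and 263 CPM at 6 dpf (log2 ratio -2.23, -2.28 to -2.17; -2.06 marker-rich), and acod1, which makes the antimicrobial metabolite itaconate, at 2424 CPM at 3 dpf and 529 CPM at 6 dpf (log2 ratio -2.19, -2.23 to -2.14; -2.02 marker-rich). The glucose carrier slc2a3b stood at 64.6 and 10.97 CPM (log2 ratio -2.12, -2.08 marker-rich), pkma at 467 and 131 CPM (log2 ratio -1.79, -1.66 marker-rich) and ldha at 221 and 106 CPM (log2 ratio -1.03, -0.89 marker-rich). gapdhs stood at 1673 and 1398 CPM (log2 ratio -0.26, -0.068 marker-rich), so the enzymes did not share 1 ratio. Of 25 glycolysis genes, 0 were higher and 7 lower in marker-rich members, with 2 and 2 around the median. alox5a and lta4h, which make leukotrienes, stood at 58.4 and 13.0 CPM (log2 ratio -1.81, -2.08 marker-rich) and 48.5 and 9.88 CPM (log2 ratio -1.85, -1.75 marker-rich). After thinning, acod1 UMIs were in 92.5% of members at 3 dpf and 56.1% at 6 dpf, and in 5.76% and 0.143% of marker-free cells.

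Genes of the wider TGF-β family were examined in these controls, while the study inhibited the receptor ALK5 in other larvae. The list also holds BMP receptor genes, so its levels are no readout of ALK5. The signal carriers smad1 and smad2 stood at 246 and 50.0 CPM (log2 ratio -2.19, -2.15 marker-rich) and 78.4 and 16.8 CPM (log2 ratio -1.93, -1.61 marker-rich), and the receptor genes tgfbr1a and tgfbr2b at 12.8 and 3.91 CPM (log2 ratio -0.99, -1.299 marker-rich) and 23.0 and 5.76 CPM (log2 ratio -1.38, -1.23 marker-rich). The gene id2a stood at 105 and 396 CPM (log2 ratio 1.87, 2.48 marker-rich) and tgfbi at 18.7 and 2.39 CPM (log2 ratio -1.68, -1.75 marker-rich). Of 31 genes, 2 were higher and 12 lower in marker-rich members, or 7 and 1 around the median. In the TNF receptor family tnfrsf18 (GITR) and tnfrsf9a (CD137) were higher, at 41.8 CPM at 3 dpf and 276 CPM at 6 dpf (log2 ratio 2.59, 2.50 to 2.67; 2.74 marker-rich) and 199.6 and 756 CPM (log2 ratio 1.90, 2.08 marker-rich), and tnfrsf1b was lower at 429 and 135 CPM (log2 ratio -1.63, -1.47 marker-rich). For tnfrsf9a, marker-free cells went from 12.3 to 189 CPM. In that family 2 of 14 genes were higher and 7 lower in marker-rich members, or 5 and 0 around the median.

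Receptors and bridges for dying cells differed. The phosphatidylserine receptor gene havcr1 (TIM-1) stood at 1195 and 1878 CPM (log2 ratio 0.65, 0.82 marker-rich), the bridging protein gene mfge8b at 13.9 and 39.3 CPM (log2 ratio 1.23, 1.91 marker-rich), and anxa2a at 26.3 and 115 CPM (log2 ratio 1.93, 2.30 marker-rich). The receptor tyrosine kinase gene mertka stood at 28.6 and 17.8 CPM (log2 ratio -0.56, -0.82 marker-rich) and stab1 at 34.3 and 6.41 CPM (log2 ratio -1.78, -1.74 marker-rich). Of 18, 2 were higher and 4 lower in marker-rich members, or 4 and 0 around the median. In the matrix list the protease genes adam8a and plaua stood at 909.5 and 357 CPM (log2 ratio -1.34, -1.16 marker-rich) and 195 and 58.3 CPM (log2 ratio -1.66, -1.51 marker-rich), and the inhibitor timp2b at 358 and 659 CPM (log2 ratio 0.87, 1.07 marker-rich).

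Dividing cells were present at both stages. Clusters led by mitotic genes held 377 members at 3 dpf (3.52%) and 28 at 6 dpf (4.24%), and the summed G2/M list in them was 8347 and 7493 CPM. In all members mki67 stood at 75.04 and 3.37 CPM (log2 ratio -3.26, -2.08 marker-rich) and top2a at 40.9 and 5.65 CPM (log2 ratio -2.11, -1.32 marker-rich), and hmgb2a at 562 and 341 CPM (log2 ratio -0.72, 0.0065 marker-rich). Of 35 G2/M genes 22 were lower in all members and 7 in marker-rich ones with 0 higher in either, and around the median 4 were higher and 1 lower in marker-rich members. The progenitor-led 3 dpf cluster held 7541 CPM of the list, and 42 of its 418 cells were marker-rich. Its 8 markers summed to 4181 CPM, and Scrublet called 68.2% of its cells.

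Heat shock and immediate early genes are known to respond to tissue digestion, which was at 37 °C here. The small heat shock gene hspb1 stood at 496 CPM at 3 dpf and 3048 CPM at 6 dpf (log2 ratio 2.61, 2.58 to 2.63; 2.91 marker-rich) and was higher in marker-free cells as well, from 626 to 2817 CPM. hsp90aa1.2 stood at 2029.7 and 4148 CPM (log2 ratio 1.03, 1.303 marker-rich) and hsp90ab1 at 3724 and 1763 CPM (log2 ratio -1.08, -1.04 marker-rich). Of 35 immediate early genes 1 was higher, mcl1b at 256 and 958 CPM (log2 ratio 1.88, 2.02 marker-rich), and 11 were lower in marker-rich members, with jun at 276 and 216 CPM (log2 ratio -0.35, -1.64 marker-rich) and btg2 at 245 and 123 CPM (log2 ratio -0.97, -2.86 marker-rich). The immediate early counts were 4 higher and 5 lower in all members, and 7 and 2 in marker-rich members around the median. Of 35 heat shock genes, 3 were higher and 8 lower in marker-rich members, or 11 and 0 around the median. Their part in the other results was not tested.

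**Figure D3:**
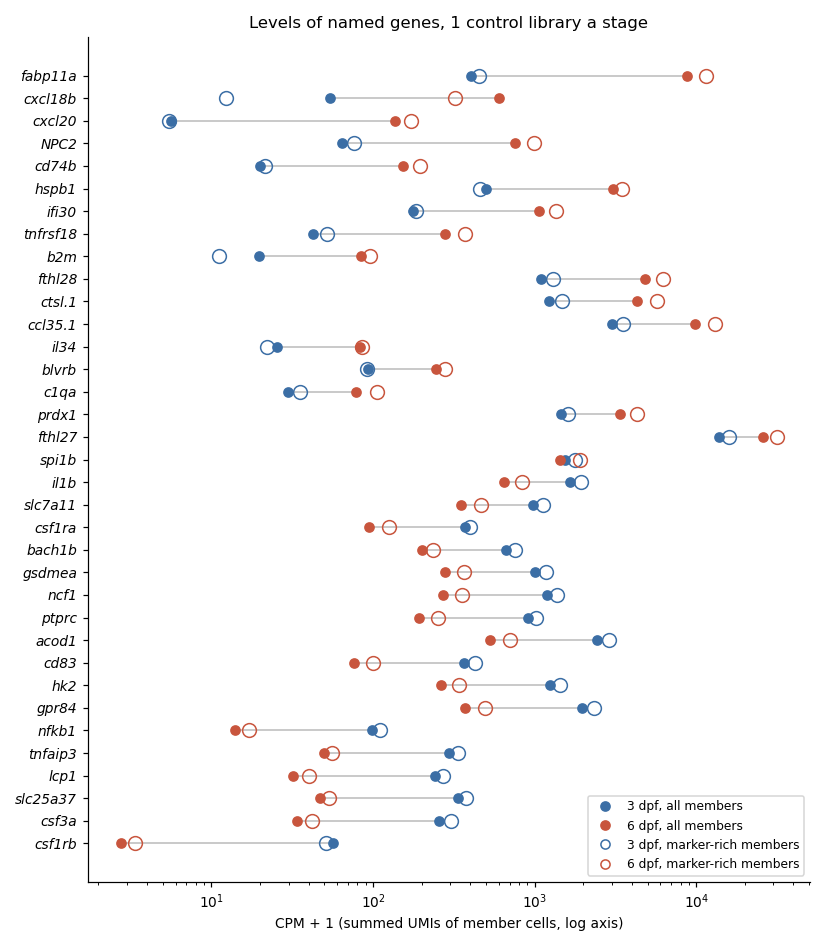
Levels of named genes in CPM + 1 (log axis) in the 3 dpf (blue) and 6 dpf (red) control library, ordered by the marker-rich ratio. Filled points are all members, open points marker-rich members, and 1 library stands behind each. fabp11a, cxcl20 and NPC2 lie far to the right of their 3 dpf points at 6 dpf, spi1b is level, and csf1rb is lowest relative to 3 dpf.

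Of 1420 genes that were at least 3 times above marker-free cells in the library where they were higher, 154 were at least 2-fold higher and 543 lower in marker-rich members. Over all 6962 genes compared in those cells 3.94% were higher and 37.4% lower, so the lower share was near that of all genes. The filter used the library where a gene was higher, so the higher share is not read as a result. Beside genes given above, the lowest included arhgap24, a regulator of Rac, at 326 and 32.8 CPM (log2 ratio -3.13, -2.98 marker-rich), the tyrosine kinase gene fes at 326 and 39.5 CPM (log2 ratio -2.90, -2.81 marker-rich), and rarab, a retinoic acid receptor, at 573 and 71.7 CPM (log2 ratio -2.91, -2.75 marker-rich). The ubiquitin ligase rnf19b stood at 121 and 12.9 CPM (log2 ratio -2.82, -2.81 marker-rich), the receptor phosphatase ptprfb at 870.1 and 134 CPM (log2 ratio -2.66, -2.63 marker-rich), and the adenosine receptor adora2b at 70.9 and 7.49 CPM (log2 ratio -2.60, -2.55 marker-rich). The cells behind the extremes differed: of the 20 highest macrophage-enriched genes in all members, 5 were 2-fold higher in marker-rich members, and all 20 of the lowest genes were 2-fold lower there. Marker-rich members are part of the same cells, so the overlap of the lowest genes is a description and no separate evidence. Many of the 20 highest, such as fetub and apom, are liver genes. The paralogs jac2 and jac3 had unlike values in both pairs: jac2 went from 1.01 to 129.6 CPM in marker-rich controls and from 0.733 to 0.950 CPM in the inhibitor pair. For jac3 the values were 0.350 and 64.8 CPM in controls and 0.157 and 0.713 CPM in the inhibitor pair. Both genes led a cluster of 97 cells of the 6 dpf control library, so this difference rests on 1 cluster of 1 library.

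Spread among clusters was wide at both stages. Across the 13 clusters of 3 dpf and the 5 of 6 dpf with at least 30 marker-rich cells, 43 of the 154 higher genes and 44 of the 543 lower genes had ranges that did not overlap. These genes were picked by their ratio in the same cells, and the share over all genes is not given here. The counts are therefore a description only. Among genes without overlap was csf1rb, at 24.8 to 144 CPM against 0 to 3.93, and NPC2 was another, at 38.54 to 287 against 406 to 1993. fthl28 was likewise separate, at 387 to 2041 and 2155 to 20025 CPM, and so was ccl35.1, at 617 to 5262 and 5391 to 22737 CPM. csf3a, gpr84 and il1b overlapped. Clusters are not replicates, so this describes the cells of these libraries.

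**Figure D4:**
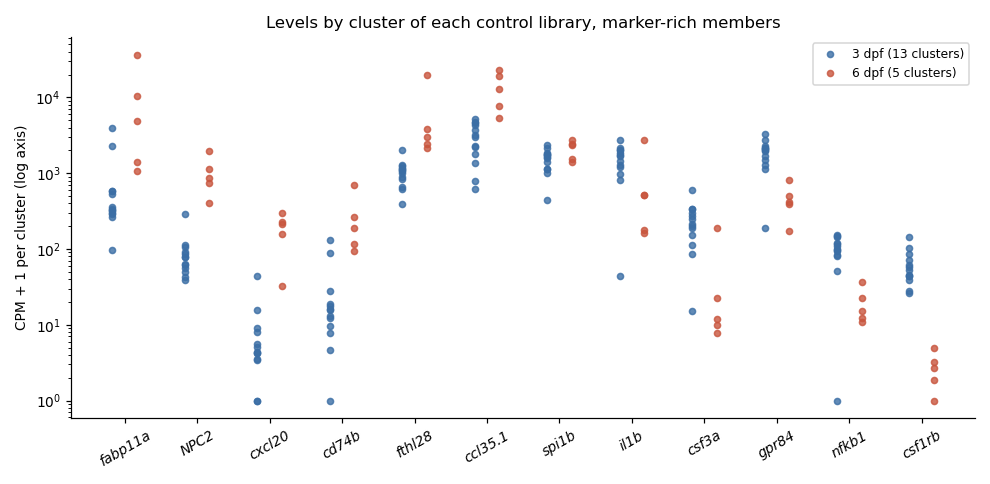
Level in CPM + 1 (log axis) of named genes in each cluster of marker-rich members, 13 clusters at 3 dpf (blue) and 5 at 6 dpf (red), 1 point a cluster. For NPC2, fthl28, ccl35.1 and csf1rb the stages do not overlap, and for il1b, csf3a and gpr84 they do.

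The inhibitor libraries gave the same contrast in other larvae, with 8911 members at 3 dpf and 439 at 6 dpf by the same rule. They share no sample with the control pair but carry the same tie of stage and sort. There 559 of 7645 genes were higher (7.31%) and 2885 lower (37.7%). In marker-rich members of that pair 349 of 7166 genes were higher (4.87%) and 2748 lower (38.3%). Of the genes past 2-fold in marker-rich controls, 217 of 274 higher ones (79.2%) and 2181 of 2602 lower ones (83.8%) were past 2-fold the same way in marker-rich inhibitor members, and 0 and 1 the opposite way. Across 6962 genes, which are not replicates, Pearson's r of both sets of ratios was 0.929, as a description. Marker-rich ratios in the inhibitor pair were 4.84 for fabp11a, 3.98 for NPC2, 3.58 for cd74b, 4.07 for mhc2a and 2.07 for fthl28. On the lower side they were -3.64 for csf3a, -2.47 for nfkb1 and -2.98 for slc25a37. The larvae of that pair differ by the inhibitor as well.

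**Figure D5:**
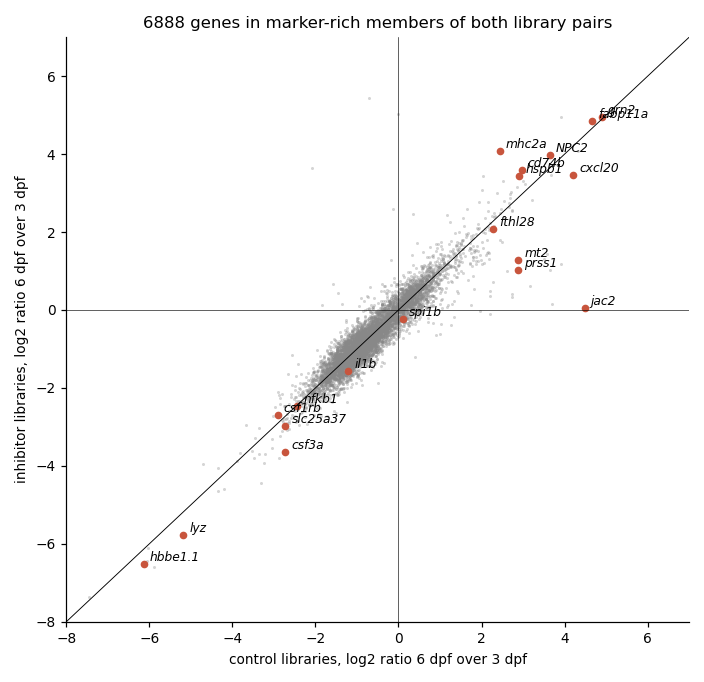
Log2 ratio of 6 dpf over 3 dpf in marker-rich members of the control libraries (horizontal) and of the inhibitor libraries (vertical), 1 point for each of 6888 genes, with named genes in red and the line of equal ratios. Most genes lie near the line, and jac2, prss1 and mt2 lie below it. The inhibitor cells had no Scrublet filter.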

How the data were processed

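Single-cell 3′ RNA libraries (10x Chromium v4) of sorted zebrafish larval cells were analysed from UMI counts per gene and cell, which the authors deposited as sparse matrices. The file headers name Cell Ranger 9.0.0, and the submitters' processing notes name Cell Ranger 9.0.1 and the GRCz11 build. The control libraries held 97212191 UMIs in 34398 barcodes at 3 dpf and 20481201 in 2125 at 6 dpf. Cells under 500 UMIs or 300 genes or over 10% mitochondrial UMIs were left out, doublets were kept, and counts were summed over members of each library and scaled to a total of 1e+06 (CPM). Genes with 10 CPM in either library were compared as log2 of CPM + 5. With 1 library a group there was no test. Intervals joined exact Poisson limits (95%), and intervals of shares are exact Clopper-Pearson, both for counting error only. Members of each library were clustered (2000 variable genes, 30 components, 15 neighbours, Leiden resolution 1) with scanpy 1.11.5 and leidenalg 0.10.2 in Python 3.11.15, with numpy 2.4.6, scipy 1.17.1 and pandas 2.3.3. Clusters were described by their leading genes. The ratio was tested on simulated data.

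The members and all gene lists were chosen with earlier results of these data known. Genes named by rule were the 20 highest and 20 lowest among genes at least 3 times above marker-free cells, the highest, lowest and most abundant of each list, the 5 extremes of all genes, and genes past 2-fold in 4 lists. The text gives a selection of them, and its other genes were chosen after their values were seen. Symbols are those of the files, and some genes are not reported here. Alternatives covered scaling, pseudocount, level minimum, depth, marker number, doublets and free RNA.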

Additional observations from a re-analysis of the deposited data

How the results depend on the processing

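The counts of genes at least 2-fold higher and lower, 587 and 3295, depended on the scaling most. They were 1779 and 347 under TMM and 1468 and 568 with the median set to 0, and in marker-rich members with the median set to 0 they were 1149 and 420. The share of higher genes among all past 2-fold was thus 15.1% in CPM and 83.7% under TMM. The count of higher genes also changed with the cells: it was 269 with cells thinned before the marker rule, 354 with at least 4 markers, 345 without cells of 2 or more epithelial markers, 274 in marker-rich members and 336 after subtracting free RNA from them. Under the other alternatives run, 412 to 737 genes were higher, and all alternatives other than those scalings gave 2415 to 4018 lower genes. The 4 alternatives on marker-rich cells and clusters were chosen after seeing the data. The planned subtraction of free RNA from all members was not run, because tissue markers in 6 dpf members exceeded their level in marker-free cells.

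The median of the complement list, 1.96, was -0.043 with thinned cells, -0.18 in marker-rich members and -0.15 after subtraction. The S phase and G2/M medians were 0.37 and 0.21 in marker-rich members with the median set to 0. In thinned cells, c7b stood at -1.59, tfa at -0.83, hp at -1.19 and nqo1 at -0.47. c7b was also -0.32 with each cell weighing the same, -0.87 with at least 4 markers and -1.17 without epithelial-marker cells. In marker-rich members the ratios were -0.11 for c9, -0.30 for apom, -1.57 for tfa, -0.21 for c3a.1, -1.84 for hp, -0.14 for nqo1 and -1.80 for c7b. With the median also set to 0, tfa was -0.79, hp -1.07 and c7b -1.02. After subtraction c9 was -0.11, apom -0.29, tfa -1.67, c3a.1 -0.24, hp -0.065, c7b -1.995 and fetub -0.22. Without the clusters led by genes of other types, tfa was -0.33, hp -2.59 and c7b -1.01. That alternative also left out the cluster of 180 cells led by pancreatic enzyme genes, 27.3% of the 6 dpf members, of which 179 were marker-rich. A minor MFAP4 feature, at 1.38 in all members, was -1.23 in thinned cells, -0.46 with at least 4 markers, -0.26 without epithelial-marker cells, -0.87 in marker-rich members, -0.098 with their median set to 0, -0.97 after subtraction and -0.69 without those clusters. For these reversals the cause was not tested.

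No paired analysis was possible because each group is 1 library and the result comes from no test. Of 231 named genes past 2-fold, 188 kept their sign under all 15 alternatives run on single genes, and 94 stayed past 2-fold. TMM and centring all members on their median shift every ratio by less than 2-fold, so neither could change these signs. A smaller pseudocount could not do so either. The count of kept signs is therefore no measure of stability under those scalings. With 1 library a stage, no spread between libraries could be measured, and the 6 dpf levels rest on 660 cells.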
